A study of Mus musculus with 10 samples.

Results

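Fam20c, Rab7b, Mamdc2 and Gpr65 are 4 genes of 19749 named on the array that stood higher in WT microglia from mice fed cuprizone and were less studied in that setting than the lipid and phagocytosis genes around them. They were chosen by their log2 intensities in WT microglia on cuprizone or in recovery, which differed from the WT control, so those WT differences are given as a description and carry no test. Each gene was read by 1 probe, on all 10 arrays.

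The 4 proteins work in different compartments. Fam20c is a protein kinase of the Golgi that phosphorylates proteins on their way out of the cell, and Rab7b is a small GTPase that directs traffic between late endosomes and the trans-Golgi network and, in macrophages, limits signalling from Toll-like receptors. Mamdc2 is a secreted protein with MAM domains, modules found in many adhesion and matrix proteins. Gpr65 is a receptor of leukocytes that senses protons outside the cell and raises cyclic AMP.

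Microglia, the resident macrophages of the brain, were sorted by flow cytometry, and their RNA was measured on 1 array per library. The mice were C57BL/6 males aged 8 to 12 weeks, either Trem2-/-, which lack a lipid-sensing receptor of microglia, or WT. Each genotype gave 5 libraries, namely a control without cuprizone, cuprizone at 0.2% of the diet for 4 or 12 weeks, and a recovery library for each feeding time, from separate mice returned to normal chow for 2 weeks. Cuprizone binds copper and damages oligodendrocytes, so that axons lose their myelin, which is rebuilt once the toxin is withdrawn. The groups were therefore Trem2-/- cuprizone and Trem2-/- recovery with 2 libraries each and Trem2-/- control with 1, and WT cuprizone and WT recovery with 2 each and WT control with 1. The sources used here do not state which part of Trem2 was deleted, the markers of the sort or how many mice made up a library. With 10 arrays in all, the number of libraries limits the precision of every value, and the p-values measure only the spread between these libraries, which may be technical. Where group means were compared, the 2 libraries of a group had different titled feeding times, which adds to that spread unless feeding time was a block.

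Some facts of the libraries touch all results. For the Trem2-/- cuprizone library titled 12 weeks, another label says 4 weeks, and it was counted by its title. The controls and all 4-week libraries form a first run of sample numbers (6 arrays) and all 12-week libraries a second run (4 arrays), so feeding time and run cannot be told apart. The spread within each cuprizone or recovery group holds both. Trem2 itself matched every genotype label, at 7.26 to 7.85 log2 intensity in Trem2-/- libraries and 10.66 to 10.81 in WT libraries, a difference of -3.13 ± 0.10 (SE, limma adjusted p = 4.3e-07). Microglial markers were bright in all libraries, with P2ry12 between 10.77 and 11.46 and Tmem119 between 10.78 and 11.55. Markers of neutrophils followed the run: S100a8, a calcium-binding protein of neutrophil granules, stood at 10.86 to 12.30 in the first run and 3.01 to 6.59 in the second. In such bulk samples, fewer cells that make a transcript and less transcript per cell cannot be told apart.

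Since the 4 genes stood higher together, the sequence before their start sites is shown where the RefSeq table of GRCm38.p6 gives one, which it does for 2 of the 4, Fam20c and Gpr65. Capitals mark matches to any of 5 motifs searched on both strands. The motifs were GAGGAA, the core bound by the myeloid factor PU.1, CACGTG, the E-box of the MiT/TFE factors of lysosomal genes, TGAGTCA, the AP-1 site, GGGCGG, the GC box, and TATAAA, the TATA box. The first sequence is chr5:138754831-138755080 and the second chr12:98268385-98268634, both on the plus strand, each of them the 250 bases that end just before the start.
Fam20c: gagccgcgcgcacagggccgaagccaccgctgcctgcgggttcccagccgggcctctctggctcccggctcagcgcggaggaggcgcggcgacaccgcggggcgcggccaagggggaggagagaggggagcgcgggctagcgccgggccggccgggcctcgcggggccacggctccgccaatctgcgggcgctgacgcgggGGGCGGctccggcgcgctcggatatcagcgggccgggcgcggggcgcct
Gpr65: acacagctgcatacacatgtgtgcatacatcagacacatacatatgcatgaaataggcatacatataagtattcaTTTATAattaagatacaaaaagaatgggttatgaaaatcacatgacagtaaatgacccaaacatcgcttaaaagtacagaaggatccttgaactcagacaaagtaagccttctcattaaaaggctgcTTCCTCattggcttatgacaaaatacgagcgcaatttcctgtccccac
The promoters are unlike in composition. That of Fam20c held 81.2% G and C and 41 CpG dinucleotides, more G and C than 99.1% of the 32851 promoter windows in the table, and its 1 motif match was a GC box, which 32.7% of windows hold. That of Gpr65 held 36.8% G and C and 3 CpG, and it matched the reverse complements of the PU.1 core (TTCCTC) at -48 to -43 and of the TATA box (TTTATA) at -175 to -170 from the start, motifs held by 23.3% and 12.4% of windows. The median window held 52.4% G and C and 6 CpG. Neither sequence matched the E-box or the AP-1 site, held by 6.02% and 4.46% of windows. A match is a stretch of letters and not a bound site.

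Fam20c stood near its control level in Trem2-/- cells on cuprizone and well above it in WT cells. In Trem2-/- microglia its log2 intensity was 5.05 in the control, 5.06 and 5.23 after 4 and 12 weeks of cuprizone, and 5.34 and 5.75 in recovery from them. In WT microglia it was 4.99 in the control, 7.71 and 7.44 on cuprizone, and 6.33 and 6.58 in recovery. The WT libraries on cuprizone were thus the highest and those in recovery lay between them and all Trem2-/- libraries, with no overlap between genotypes outside the controls. Of all genes tested, 15.4% lay below WT with no overlap in Trem2-/- cells on cuprizone and 12.4% in recovery. Fam20c exceeded 5.27, the median of the whole table, in 6 libraries, namely the 4 WT libraries on cuprizone or in recovery and the 2 Trem2-/- libraries in recovery. The controls and both Trem2-/- libraries on cuprizone lay below it, where signals are close to background and differences can be compressed.

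Rab7b was dimmer and likewise highest in WT cells on cuprizone. It stood at 3.53 in the Trem2-/- control, at 4.45 and 4.29 on cuprizone for 4 and 12 weeks and at 4.75 and 5.44 in recovery. WT levels were 4.27 in the control, 6.70 and 6.90 on cuprizone, and 5.71 and 5.66 in recovery. On cuprizone both Trem2-/- libraries were near the WT control, while in recovery the 12-week Trem2-/- library came within 0.22 of its WT counterpart. Rab7b exceeded the table's median in 5 libraries, of which that was the only Trem2-/- one.

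Mamdc2 was the dimmest of the 4. Its Trem2-/- levels were 3.32 in the control, 3.82 and 3.83 on cuprizone and 4.11 and 4.04 in recovery. In WT cells it measured 3.66 in the control, 5.69 and 6.08 on cuprizone, and 4.18 and 4.49 in recovery. Only the 2 WT libraries on cuprizone exceeded the table's median, and Mamdc2 passed the brightness filter, which asks for 2 such arrays, through them alone. The other 8 libraries lay between 3.32 and 4.49.

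Gpr65 was the brightest, above the table's median on all 10 arrays. Trem2-/- cells had 7.13 in the control, 8.11 and 7.80 on cuprizone and 8.52 and 8.18 in recovery, against 7.34 in the WT control, 9.19 and 9.17 in WT cells on cuprizone and 8.74 and 8.74 in WT recovery. Trem2-/- libraries on cuprizone and in recovery all stood above both controls and below every WT library of the same diet. The WT pairs were nearly identical between feeding times, with an SD of 0.01 on cuprizone and 0.0015 in recovery, while the Trem2-/- pairs had 0.22 and 0.25.

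**Figure D1:**
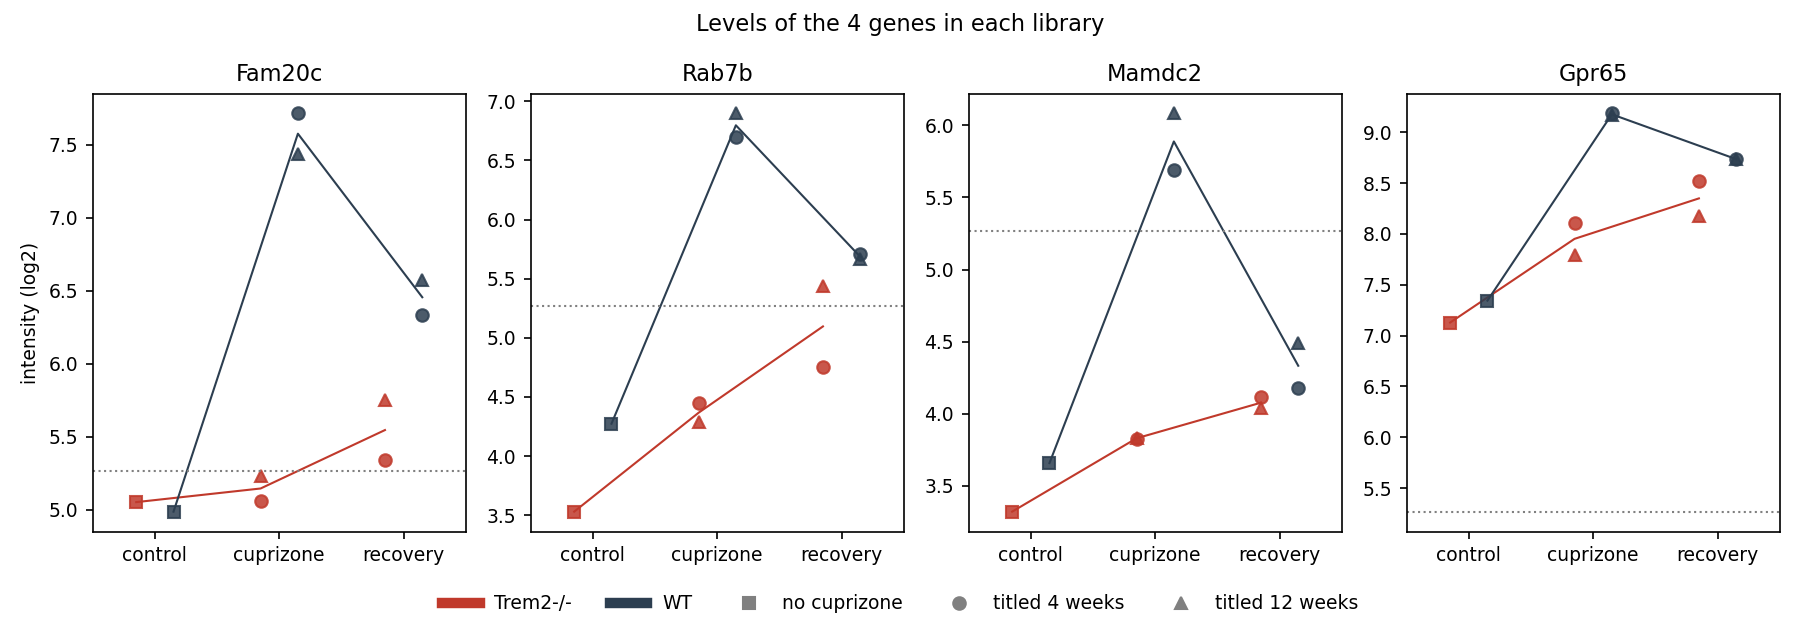
Log2 intensity of each gene by diet, Trem2-/- in red to the left of WT in dark blue; each point is 1 library (square for controls, circle for 4 weeks, triangle for 12 weeks), lines join group means, and the dotted line is the table's median of 5.27. WT means peak on cuprizone, at 7.57 for Fam20c and 9.18 for Gpr65, while Trem2-/- means are highest in recovery for all 4 genes.

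Ordered by group mean, all 4 genes had the same first 4 places: WT cuprizone, WT recovery, Trem2-/- recovery and Trem2-/- cuprizone. That both WT groups stood above the WT control follows from the choice of genes. The choice also favours a high place for the WT groups, and so their lead over the Trem2-/- groups. The 4 genes ran alike over the arrays, so they are not 4 separate cases. The share of all genes with this order was not computed. Among the steps between these 4 groups, each exceeded the larger SD of its pair. The step from Trem2-/- cuprizone to the next lower group did not for Fam20c and Rab7b, where that group was the Trem2-/- control for Fam20c (5.15 ± 0.12 against 5.05) and the WT control for Rab7b (4.37 ± 0.11 against 4.27; SD, n = 2 on cuprizone, 1 control). The single controls have no spread of their own. For Mamdc2 the step from WT recovery (4.33 ± 0.22) to Trem2-/- recovery (4.08 ± 0.05) was only 0.26, and the lower WT recovery library lay 0.06 above the higher Trem2-/- one.

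The size of the WT difference on cuprizone, which selected the genes, was 6.01-fold over the control for Fam20c (2.59 ± 0.27 on the log2 scale, SE), 5.75-fold for Rab7b (2.52 ± 0.30), 4.69-fold for Mamdc2 (2.23 ± 0.25) and 3.56-fold for Gpr65 (1.83 ± 0.25). Over all 10792 genes tested, limma called 0.148% in that comparison, 16 genes that were all higher, and 0.973% with feeding time as a block. The 4- and 12-week libraries gave like values, at 2.73 and 2.45 for Fam20c, 2.42 and 2.62 for Rab7b, 2.04 and 2.43 for Mamdc2 and 1.84 and 1.82 for Gpr65. The 4-week values come from the same run as the control. Except for Gpr65, the controls lay below the table's median, so the folds depend on how dim signals are treated: with 16 added before log2, the differences were 2.12 for Fam20c, 1.85 for Rab7b, 1.40 for Mamdc2 and 1.74 for Gpr65, and the order of the genes was not the same.

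In Trem2-/- cells the same diet gave smaller differences, none of which passed the test. The choice of genes was stated for WT arrays, but earlier results of these data were known when it was made. Gpr65 was 1.77-fold over its control (0.82 ± 0.25, SE, adjusted p = 0.999) and Rab7b 1.79-fold (0.84 ± 0.30, adjusted p = 0.999). Mamdc2 differed by 0.51 ± 0.25 and Fam20c by 0.09 ± 0.27 (adjusted p = 0.999 each, limma). Rab7b and Mamdc2 were bright enough for the fit only through WT arrays. This limits their p-values here and in the recovery and feeding-time comparisons below. All 4 values were positive in both feeding times, with Fam20c at 0.01 and 0.18. Both feeding times were set against the same single Trem2-/- control, so their signs are not independent. The library of the longer feeding time also comes from a different run than that control. How many of all genes were positive in both was not computed, so this is a description. With 16 added before log2, Rab7b had 0.41 and Mamdc2 0.22. Of all genes limma called 0%, against 100 that had an unadjusted p under 0.05, among them Gpr65 at 0.010. Rab7b was also among them, with the limit given above. With feeding time as a block, 0.12% of genes were called and the 4 genes were not among them (adjusted p = 0.531 for Gpr65 at 0.91 ± 0.21, and 0.99994 for the others).

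Set side by side on cuprizone, Trem2-/- minus WT was -2.43 ± 0.22 for Fam20c, -2.43 ± 0.25 for Rab7b, -2.06 ± 0.21 for Mamdc2 and -1.23 ± 0.20 for Gpr65 (log2 difference ± SE), which puts Fam20c at 0.186 and Gpr65 at 0.428 of the WT level. In this comparison limma called 0.334% of all genes, 0.00927% higher and 0.324% lower, and 1.42% with feeding time as a block. With 16 added before log2, Mamdc2 had -1.32. These differences contain the WT arrays on which the genes were chosen and are descriptions. The single controls differed between genotypes by 0.07 for Fam20c, -0.74 for Rab7b, -0.34 for Mamdc2 and -0.22 for Gpr65, Trem2-/- minus WT, with no replicate. After removal of that starting difference, the response to cuprizone in Trem2-/- minus that in WT cells was -2.49 ± 0.38 for Fam20c, -1.69 ± 0.43 for Rab7b, -1.72 ± 0.36 for Mamdc2 and -1.01 ± 0.35 for Gpr65, again without a test and with 0.00927% of all genes called, 1 gene that was lower.

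Genotype was also compared as the mean difference over the 5 diet conditions. Random error in the equally weighted mean of the 5 WT arrays does not depend on how they differ among themselves. A true WT rise on cuprizone or in recovery still raises that mean, so these values are not free of the choice of genes. With diet condition as a block, Trem2-/- minus WT was -1.32 ± 0.32 for Fam20c (adjusted p = 0.159) and -0.69 ± 0.17 for Gpr65 (adjusted p = 0.165, limma). Neither passed at 0.05, where 0.259% of all genes did, 0.0741% higher and 0.185% lower. The difference was -1.36 ± 0.30 for Rab7b and -0.99 ± 0.29 for Mamdc2. These are given with no p, because Rab7b and Mamdc2 were bright enough for the fit only through WT arrays, whereas Fam20c and Gpr65 passed the filter on Trem2-/- arrays alone. Rab7b, Mamdc2 and Gpr65 were lower in Trem2-/- cells in 5 of 5 conditions and Fam20c in 4 of 5. In 4 of these conditions the WT array is one on which the genes were chosen, and the other has a single control per genotype. The share of all genes with such counts was not computed, so the counts are a description. The unadjusted p was 0.0022 for Fam20c and 0.0023 for Gpr65, and 1162 of the 10792 genes had one under 0.05. The spread in this fit is how the genotype difference varies over diets, and it varied widely for these genes, for example from 0.07 in the controls to -2.65 at 4 weeks of cuprizone for Fam20c. When either control was left out, Fam20c had -1.67 ± 0.27 and fell on the other side of the threshold. That mean holds only the conditions whose WT arrays chose the genes, so it is a description.

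Recovery minus cuprizone had opposite signs in the 2 genotypes. In Trem2-/- cells every gene was higher in recovery than on cuprizone in both feeding times: by 0.31 and 1.15 for Rab7b at 4 and 12 weeks, 0.28 and 0.52 for Fam20c, 0.42 and 0.38 for Gpr65, and 0.29 and 0.21 for Mamdc2. In WT cells every gene was lower in recovery than on cuprizone in both, with differences of -0.99 and -1.23 for Rab7b, -1.38 and -0.86 for Fam20c, -0.45 and -0.43 for Gpr65, and -1.52 and -1.59 for Mamdc2. Recovery lay above cuprizone with no overlap in Trem2-/- cells for 9.18% of all genes tested, and below it with no overlap in WT cells for 14.9%. In both genotypes limma called 0% of all genes between recovery and cuprizone.

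**Figure D2:**
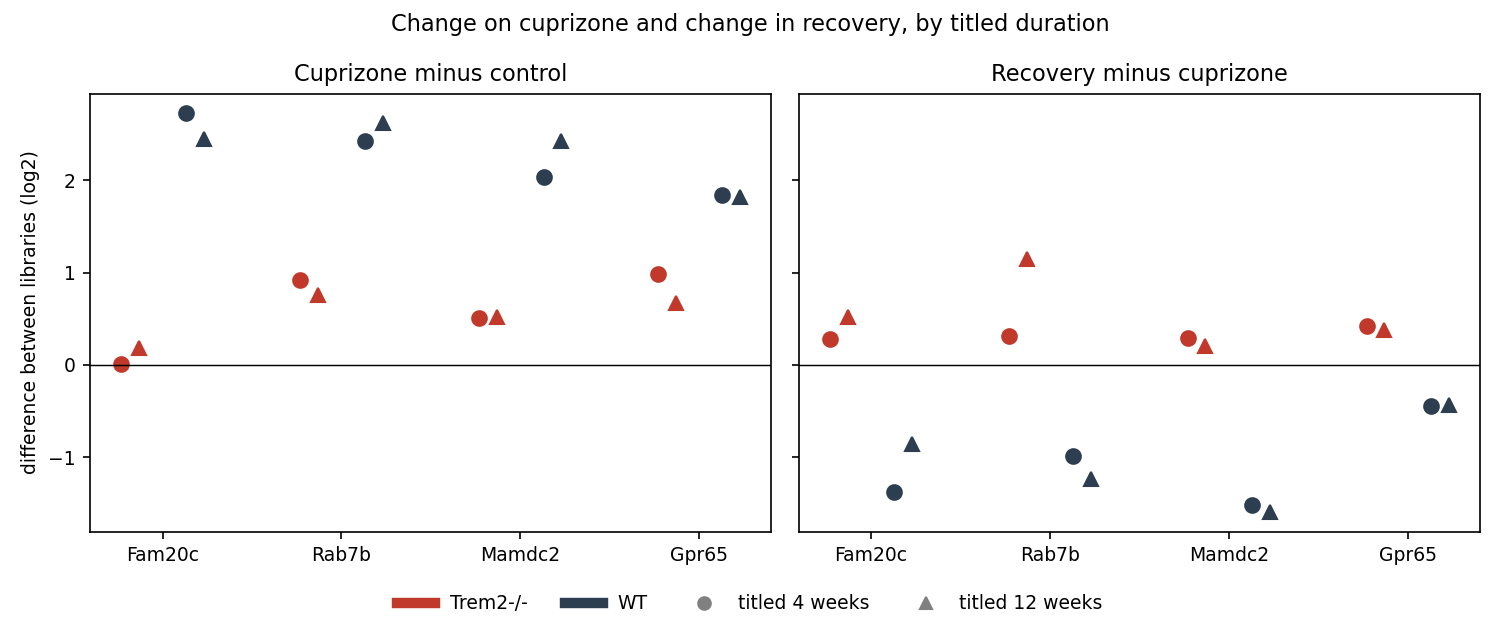
Log2 differences between single libraries of the same genotype, Trem2-/- in red to the left of WT in dark blue, with circles for 4 and triangles for 12 weeks; the left panel is cuprizone minus control and the right panel recovery minus cuprizone. On the right all 8 Trem2-/- points lie above 0 and all 8 WT points below it.

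Within Trem2-/- cells the difference could be tested and did not pass. It was 0.73 ± 0.25 for Rab7b, 0.40 ± 0.22 for Fam20c, 0.40 ± 0.20 for Gpr65 and 0.25 ± 0.21 for Mamdc2 (SE, limma adjusted p = 0.99999 each). By unadjusted limma p, 64 of all genes were under 0.05. Rab7b was among them, but it was bright enough for the fit only through WT arrays. The differences rested on single libraries. Without the 12-week recovery library they were 0.39 for Rab7b, 0.19 for Fam20c and 0.57 for Gpr65, and without the 4-week one 1.07, 0.61 and 0.22. With 16 added before log2, Rab7b had 0.46 and Mamdc2 0.12.

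Against their own control, the Trem2-/- recovery libraries were 2.96-fold higher for Rab7b (1.57 ± 0.30), 2.33-fold for Gpr65 (1.22 ± 0.25), 1.69-fold for Mamdc2 (0.76 ± 0.25) and 1.41-fold for Fam20c (0.49 ± 0.27), and the adjusted p was 0.9999 for each (limma). The single Trem2-/- control enters each of these values. With 16 added before log2, Rab7b had 0.87 and Mamdc2 0.34. Here too limma called 0% of all genes, while 151 were under 0.05 by unadjusted p, among them Gpr65 at 0.0011. Rab7b and Mamdc2 were also among them, but they were bright enough for the fit only through WT arrays. With feeding time as a block, 0.176% of genes passed. Gpr65 then had 1.31 ± 0.21 (limma adjusted p = 0.0556), the nearest that any of the 4 genes came to the threshold within Trem2-/- cells. Rab7b then had 1.48 ± 0.26.

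WT levels in recovery lay part of the way back to the control, to an extent that differed between the genes. Gpr65 kept 75.6% and 76.3% of its log2 difference from the control after 4 and 12 weeks of feeding, Rab7b 59.2% and 53%, Fam20c 49.4% and 64.9%, and Mamdc2 25.4% and 34.3%. The remaining difference from the control was 2.77-fold for Fam20c, 2.66-fold for Rab7b, 2.62-fold for Gpr65 and 1.60-fold for Mamdc2. In recovery Trem2-/- minus WT was -0.91 ± 0.22 for Fam20c, -0.59 ± 0.25 for Rab7b, -0.39 ± 0.20 for Gpr65 and -0.26 ± 0.21 for Mamdc2, where 0.0278% of all genes were called, 3 genes that were lower. For Rab7b the difference was -0.25 without the 4-week Trem2-/- recovery library and -0.93 without the 12-week one, and for Gpr65 it was -0.56 and -0.21. For Mamdc2 it was -0.41 without the 4-week WT recovery library and -0.10 without the 12-week one.

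Feeding time made no difference that passed for these genes. With the 8 cuprizone and recovery libraries and the group as a block, 12 minus 4 weeks was 0.17 ± 0.15 for Rab7b (adjusted p = 0.428), 0.16 ± 0.12 for Mamdc2 (adjusted p = 0.367), 0.14 ± 0.13 for Fam20c (adjusted p = 0.484) and -0.17 ± 0.11 for Gpr65 (adjusted p = 0.314, limma). In the same comparison 20.3% of all genes passed, 8.22% higher and 12.1% lower at 12 weeks.

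Markers of border macrophages were high in the 4-week libraries of both genotypes. Border macrophage markers (13 of 14 on the array) summed to a linear intensity of 2472 to 4820 in Trem2-/- cuprizone, 2463 to 4856 in Trem2-/- recovery and 1879 in the Trem2-/- control, against 2442 to 5381, 2191 to 4726 and 2456 in the WT groups. In each range the 4-week library was the high one. Single markers of the list differed in this. Cd163, a scavenger receptor, was at 7.34 in the 4-week and 5.26 in the 12-week WT library on cuprizone and 5.77 in the WT control. Ms4a7 was at 8.46 and 8.23 in those cuprizone libraries and 6.17 in the WT control.

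Monocyte markers (10 of 12) summed to 1845 to 2089 in Trem2-/- cuprizone, 1644 to 1777 in Trem2-/- recovery and 1940 in the Trem2-/- control, against 2064 to 2785, 2107 to 2322 and 2009 in WT. Neutrophil markers (12 of 12) summed to 970.2 to 5837 in Trem2-/- cuprizone, 812 to 5757 in Trem2-/- recovery and 7930 in the Trem2-/- control, against 813 to 7327, 941 to 15266 and 8360 in WT. T and NK cell markers (12 of 14) stayed between 208 and 316 in all Trem2-/- libraries and between 221 and 310 in all WT libraries. The median microglial marker was 11.24 to 11.37 in Trem2-/- cuprizone and 11.40 in its control, against 10.78 to 11.00 and 11.46 in WT, so it was lowest where the 4 genes were highest. No marker was at 0 on any array, and the part of these cells in the results was not tested.

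**Figure D3:**
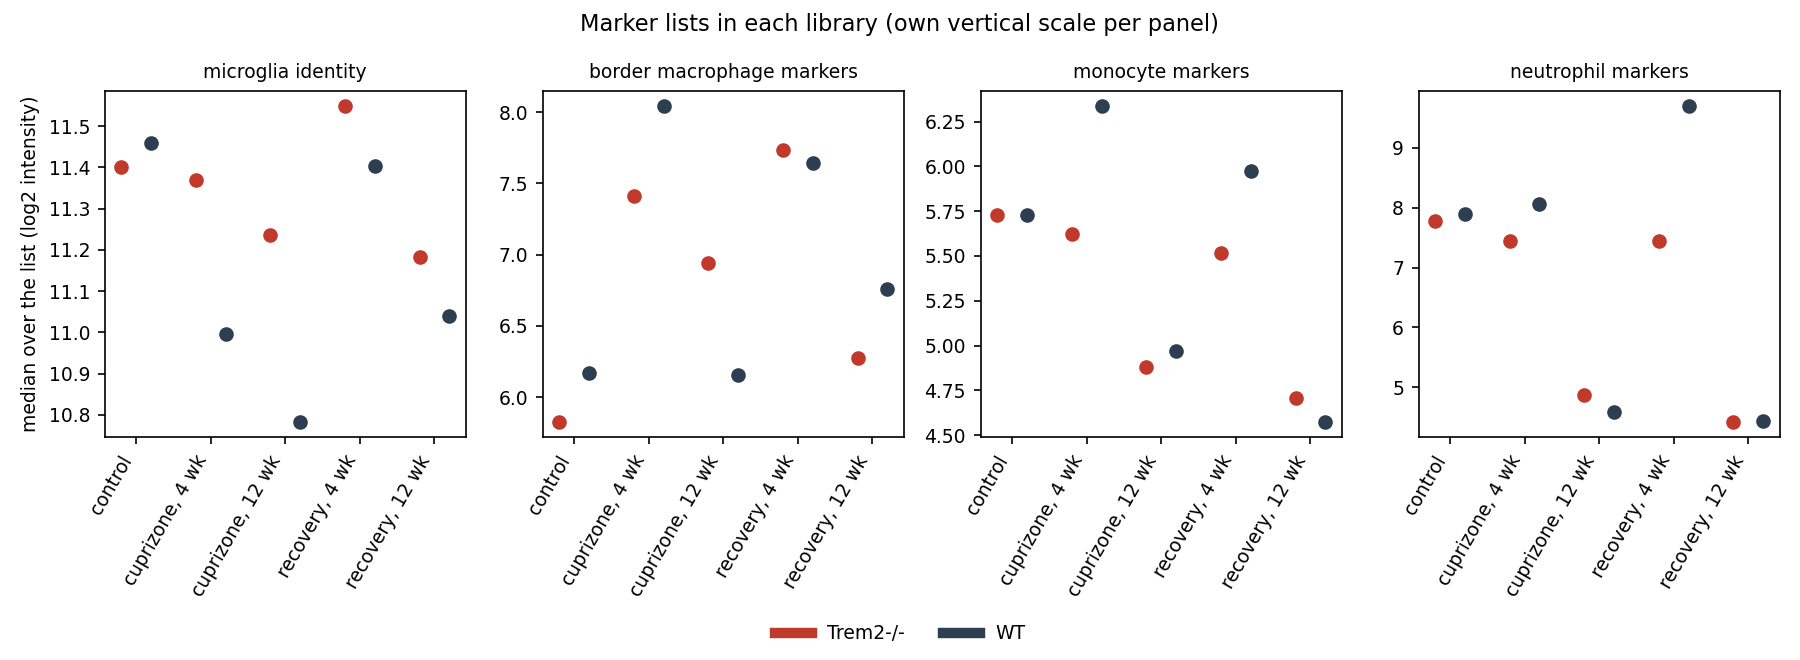
Median log2 intensity over each marker list in every library, Trem2-/- in red to the left of WT in dark blue, with a vertical scale for each panel. Border macrophage medians are high in the 4-week libraries, up to 8.04 in WT on cuprizone, and neutrophil medians are low in all 12-week libraries, down to 4.43.

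None of the closest relatives of the 4 genes passed on cuprizone in either genotype. Fam20b, the xylose kinase of proteoglycan linkers, differed by 0.40 ± 0.29 in Trem2-/- and 0.24 ± 0.29 in WT cells on cuprizone, and Fam20a, the pseudokinase partner of Fam20c, and Fjx1 were too dim to test. Rab7, the common late endosomal GTPase, stood between 9.60 and 9.90 in all libraries, with 0.10 ± 0.21 in Trem2-/- and -0.21 ± 0.21 in WT cells. Mamdc4 gave -0.26 ± 0.26 in Trem2-/- and -0.36 ± 0.26 in WT cells. The proton-sensing Gpr4 (-0.39 ± 0.69 and 0.17 ± 0.69) and its relative Gpr132 (-0.40 ± 0.28 and 0.19 ± 0.28) were measured as relatives of Gpr65, Trem2-/- before WT. The limma adjusted p was 0.999 in Trem2-/- and 0.998 in WT cells for each of these relatives.

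Secreted-protein kinases (5 of 11 bright enough to test) had 0 called in either genotype on cuprizone, against 0% of all genes in Trem2-/- and 0.148% in WT cells, a background that holds for the lists that follow too. Their medians were 0.37 in Trem2-/- and 0.19 in WT cells. The largest WT values were 0.74 ± 0.41 for Dipk2a, -0.42 ± 0.22 for Pomk, which phosphorylates mannose on dystroglycan, and 0.24 ± 0.29 for Fam20b. Late endosome Rab and tether genes (35 of 40 tested) had 0 called and medians of -0.03 in Trem2-/- and 0.06 in WT cells. Rilpl2, a relative of the Rab7 effector Rilp, had the largest WT value at 1.48 ± 0.43 (adjusted p = 0.699), against 0.55 ± 0.43 in Trem2-/- cells, followed by -0.69 ± 0.46 for the autophagosome motor adaptor Fyco1 and 0.48 ± 0.37 for Rab34 in WT.

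MAM domain genes (6 of 17 tested) had 0 called and medians of 0.01 in Trem2-/- and 0.25 in WT cells. The semaphorin receptor Nrp2 was at 0.43 ± 0.28 in Trem2-/- and 0.90 ± 0.28 in WT cells (adjusted p = 0.733 in WT), the adhesion phosphatase Ptprm at -0.07 ± 0.43 and -0.80 ± 0.43, and Nrp1 at 0.02 ± 0.31 and 0.47 ± 0.31. Of proton-sensing receptors and the cyclic AMP pathway (24 of 30 tested), 0 were called and medians were -0.02 in Trem2-/- and -0.04 in WT cells. The phosphodiesterase Pde4b, which breaks down cyclic AMP, was at 0.28 ± 0.53 in Trem2-/- and 0.80 ± 0.53 in WT cells, Arhgef1 at -0.37 ± 0.52 and -0.38 ± 0.52, and the cyclic AMP responsive repressor Crem at 0.49 ± 0.35 and 0.37 ± 0.35. Over all genes tested the median difference on cuprizone was 0.01 in each genotype.

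**Figure D4:**
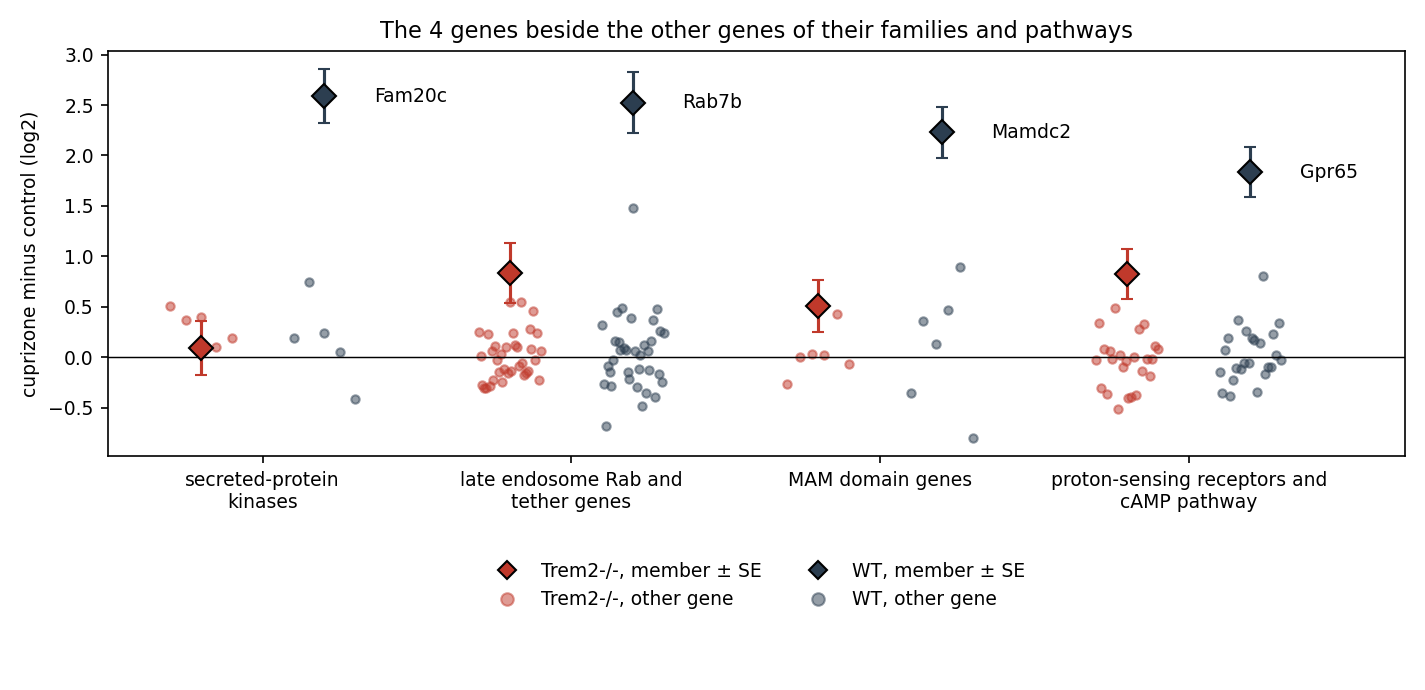
Cuprizone minus control (log2) for genes of 4 lists, Trem2-/- in red to the left of WT in dark blue; circles are single list genes and diamonds with SE bars are the gene each list was drawn around. In WT the diamonds lie between 1.83 and 2.59, a difference on which these 4 genes were chosen, and the highest circle is Rilpl2 at 1.48.

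A list of secreted proteins drawn up as candidate substrates of Fam20c was the only one with calls. Of 21 genes, 19 were read by a probe that named 1 gene, and Spp1 and Serpina1a were not among them. Of these 19, 8 were bright enough to test. In WT cells on cuprizone 2 passed, both higher, where 0.148% of all genes did. In Trem2-/- cells 0 passed, where 0% of all genes did. Both genes that passed were already known to be higher in these data when the list was made, so they are no independent evidence. Apoe, the main lipid carrier of the brain, was at 1.11 ± 0.29 in Trem2-/- cells (adjusted p = 0.999) and rose by 2.34 ± 0.29 in WT cells (adjusted p = 0.031). Lgals3, or galectin-3, whose phosphorylation by Fam20c is not established, was at -0.09 ± 0.32 in Trem2-/- cells (adjusted p = 0.999) and rose by 2.51 ± 0.32 in WT cells (adjusted p = 0.036). Between genotypes on cuprizone, Lgals3 passed at -2.67 ± 0.26 (adjusted p = 0.0066), while Apoe stood at -1.50 ± 0.24 (adjusted p = 0.0568, and 0.0066 with feeding time as a block). The third largest WT value was 0.93 ± 0.36 for the oxidase Ero1a, and the median was 0.02 in Trem2-/- and 0.44 in WT cells. These calls depended on single libraries. In WT the adjusted p reached 0.189 for Apoe and 0.206 for Lgals3 without the 4-week WT cuprizone library, and 0.17 for each without the 12-week one. Neither passed without either Trem2-/- recovery library (0.0577 each), Apoe did not without either WT recovery library (0.0524), and Lgals3 did not without either Trem2-/- cuprizone library (0.0676). Between genotypes Lgals3 did not pass without the 12-week Trem2-/- (0.073) or the 4-week WT cuprizone library (0.0596).

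Genes whose levels ran most alike to each member were ranked by Pearson's r over the 10 arrays, among the 10792 genes tested. The arrays share runs and normalization, and r describes the likeness only. Fam20c ran closest to the receptor for apoptotic cells Axl (r = 0.990), the lipase Lpl (0.983), the apolipoprotein Apoc1 (0.982), the elastase Mmp12 (0.981) and the β-glucan receptor Clec7a (0.979). Rab7b ran closest to Clec7a (0.982), the SLAM family receptor Ly9 (0.976), Minar1 (0.972), the phosphatidylserine binder Anxa5 (0.970) and Axl (0.967). Axl measured 5.46 ± 0.19 in Trem2-/- cells on cuprizone, 6.14 ± 0.29 in Trem2-/- recovery and 5.10 in their control, against 8.65 ± 0.25, 7.44 ± 0.30 and 5.43 in WT (SD, n = 2; 1 control each).

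Gpr65 ran closest to Ms4a7 (0.981), the myosin motor Myo5a (0.974), Apoe (0.970), the ceramidase Asah1 (0.956) and the growth factor Igf1 (0.951). In these genes too the Trem2-/- recovery mean was above the Trem2-/- cuprizone mean. Apoe had 12.34 ± 0.09 in Trem2-/- recovery and 11.46 ± 0.46 in Trem2-/- cuprizone, while WT had 12.65 ± 0.12 in recovery and 12.96 ± 0.05 on cuprizone (SD, n = 2 each). For Asah1 the Trem2-/- means were nearly equal (9.61 ± 0.03 in recovery, 9.60 ± 0.03 on cuprizone), and for Ms4a7 and Myo5a the libraries overlapped. These genes were picked for likeness to Gpr65 over the same arrays, which builds in a shared pattern.

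Mamdc2 had a different neighbourhood, made of genes with small ranges: the DNA repair dioxygenase Alkbh2 (0.976), Rtraf (0.969), the ribosomal protein Rps28 (0.961), the fatty acid elongase Elovl1 (0.955) and Pxdc1 (0.953). Alkbh2 was at 6.47 ± 0.02 in Trem2-/- and 6.81 ± 0.05 in WT cells on cuprizone (SD, n = 2 each), a span far smaller than that of Mamdc2. In Trem2-/- recovery Alkbh2 (6.44 ± 0.03) and Elovl1 (8.95 ± 0.07, against 8.99 ± 0.06 on cuprizone) had the lower mean. Rtraf, Rps28 and Pxdc1 had the higher mean in Trem2-/- recovery. Among the 4 genes themselves r ran from 0.860 for Mamdc2 with Gpr65 to 0.952 for Fam20c with Rab7b, a likeness that the way they were chosen builds in.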

How the data were processed

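RNA of sorted microglia was measured on 10 arrays. The authors deposited linear intensity values, 1 per probe and array, with column medians of 37.6 to 39.3; the sources used here do not state how these deposited intensities were summarised and normalized. Log2 was taken with no further scaling. Of 24567 probes, 21259 named 1 gene (19749 genes), 1274 several, and 2034 were not listed. The brightest probe of a gene was kept. Genes with at least 2 arrays above the table's median (5.27 on the log2 scale, 38.5 linear) were tested, 10792 in all, by limma 3.58.1 in R 4.3.3 (lmFit, eBayes, Benjamini-Hochberg over all genes, threshold 0.05).

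One fit held the 6 group means, with single controls assumed to vary like the other groups. Others compared genotypes over 5 conditions (condition as block) and 12 with 4 weeks (group as block). Members, lists and tests were chosen with earlier results of these data known. Named genes were the members, their 5 most correlated genes, the nearest relatives, list genes that passed and the 3 largest WT cuprizone differences per list. Libraries of the same titled feeding time deviated together (correlations of 0.523 to 0.631 over 6 pairs of groups), so feeding time served as a pairing block in an alternative, with controls beside the 4-week libraries. Fits were tested on simulated data. Alternatives covered scaling, filter, probes, an offset of 16, the block and each library left out.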

Additional observations from a re-analysis of the deposited data

Results flagged for a closer look

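For each of the 4 genes, the change from cuprizone to recovery ran up in both Trem2-/- feeding times and down in both WT feeding times, which is why they are listed here. This rule was applied to these 4 genes only, so the share of all genes that meet it is not known. The difference between the genotypes was not tested, because the WT arrays chose the genes. The change in Trem2-/- cells minus that in WT cells was 1.84 on the log2 scale for Rab7b (0.73 in Trem2-/-, -1.11 in WT), 1.80 for Mamdc2 (0.25 and -1.56), 1.52 for Fam20c (0.40 and -1.12) and 0.84 for Gpr65 (0.40 and -0.44).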

How the results depend on the processing

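In the comparisons that were tested, 337 alternative values of the members kept the direction and the side of the threshold and 2 did not. Those 2 were Fam20c between genotypes without the WT or without the Trem2-/- control (-1.67). Both fits hold only the conditions whose WT arrays chose the genes, so crossing the threshold there is no independent evidence. The alternative values include Rab7b and Mamdc2 between genotypes, for which no p is given above. Within Trem2-/- cells each member had a limma adjusted p of at least 0.999 in the main fit, so staying above the threshold there says little. Of the members' values given as description, 445 moved by less than the SD between replicates and 28 by more, 14 of these with an offset of 16 and the rest with a library left out. Counts of genes called moved more. With titled feeding time as a replicate block they were 105 (16 without) for WT cuprizone minus control, 153 (36 without) for Trem2-/- minus WT on cuprizone, 13 (0 without) for Trem2-/- cuprizone and 19 (0 without) for Trem2-/- recovery against control; with 4 weeks in the block for the library whose labels conflict, they were 37, 55, 0 and 2. The block changed no call of the 4 genes that was tested. The count for 12 against 4 weeks was 186 with that library at 4 weeks, against 2194. The genotype count over 5 conditions, 28, was 44 without the brightness filter, 54 with an offset of 16, and 6 in the first run alone, an alternative chosen after seeing the data, where the 4 genes had -1.32 to -0.50. WT cuprizone minus control gave 10 with the stricter filter, which asks for 5 bright arrays and drops Mamdc2. With single libraries left out, counts ran from 2 to 16 for WT cuprizone minus control, 0 to 42 for Trem2-/- minus WT on cuprizone, 8 to 103 over 5 conditions and 1064 to 2194 for 12 against 4 weeks; the lowest came without the WT 4-week cuprizone, the Trem2-/- 12-week cuprizone, any cuprizone and either Trem2-/- recovery library. Without the Trem2-/- 12-week cuprizone library, 333 genes had an unadjusted p under 0.05 in limma. Low signal limits Rab7b and Mamdc2: with the offset, their WT differences on cuprizone were 1.85 and 1.40, against 2.52 and 2.23.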

Other observations

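Igf2r, the receptor that carries lysosomal enzymes from the Golgi to late endosomes, was on the list around Rab7b but too dim to test, and it is given here because its values stood out once seen. Its log2 intensity was 4.28 and 4.28 in Trem2-/- cells on cuprizone for 4 and 12 weeks, 4.49 and 4.64 in Trem2-/- recovery and 4.22 in the Trem2-/- control. WT levels were 5.07 and 5.49 on cuprizone, 4.80 and 5.17 in recovery and 4.24 in the control. Only 1 of the 10 arrays was above the table's median of 5.27, so these signals are close to background.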
